A study of Danio rerio with 10 samples.

Results

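The genes described here encode the subunits of the proteasome, and they were followed through 10 RNA-seq libraries of cells sorted from zebrafish hearts. Members were all gene identifiers whose symbol begins with psma, psmb, psmc or psmd followed by a number, in either letter case. The rule found 49 of the 32520 identifiers in the count files, and no measured value entered it. By role, 10 genes encode the alpha ring of the core particle, 7 the constitutive beta ring, 5 the immunoproteasome and 7 the ATPases of the regulatory particle. The 17 psmd genes are called its non-ATPase subunits here, although some of them, such as PSMD5 and PSMD10, encode chaperones of its assembly. Counts of subunit genes below include these chaperones. PSMB11 and psmb11b, named for the thymus-specific beta subunit of mammals, make up 2 more. The last, PSMC3IP, matched by its letters alone, since it encodes a meiotic recombination factor and not a subunit.

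The proteasome is the main protease of the cytosol and nucleus, and it degrades proteins that carry chains of ubiquitin. Its core is a barrel of stacked rings: outer alpha rings gate the entrance, and inner beta rings hold the active sites, which lie in the subunits PSMB5, PSMB6 and PSMB7. A regulatory particle on the barrel's end binds ubiquitin chains, removes them, and unfolds the substrate with a ring of ATPases. In immune cells and under interferon, PSMB8 takes the place of PSMB5, PSMB9 that of PSMB6 and PSMB10 that of PSMB7, which alters the peptides made for display on MHC class I. Fish carry further immunoproteasome genes: psmb12 is related to PSMB6 and psmb13a to PSMB7. Thrombocytes, the nucleated counterparts of mammalian platelets, are the cells that both sorts were aimed at, since every library is labelled as platelets.

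Each library came from 6000 cells pooled from 15 ventricles. In the first experiment, eGFP-positive cells were sorted from Tg(CD41.eGFP) fish after ventricle amputation, from wild-type fish (3 libraries) and from fish heterozygous for the mutation clofv087b in npas4l, written clo/+ (3 libraries). The sample labels place this sort at 1 day after amputation and the series text at 3 days, which could not be resolved. In the second, DsRed-positive cells were sorted from Tg(gata1a:DsRed) fish 7 days after 4-hydroxytamoxifen, from fish labelled Npas4l OE (2 libraries) and from controls (2 libraries). The Npas4l OE fish carried gata1a:Cre-ERT2, a tamoxifen-activated Cre driven by gata1a sequences, together with the cassette ubi:loxp-eGFP-stop-loxp-Npas4l, from which Cre removes the stop and lets the ubi promoter drive Npas4l. The controls differ from each other: control replicate 1 is labelled clofv087b/+, and control replicate 2 is labelled with the Npas4l cassette without Cre. Age and strain are not given in the labels used here, replicates are pools of fish, and p-values measure the spread between these pools. Between the gata1a controls that spread also holds their difference in genotype, and the 2 cannot be told apart.

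Libraries held 6764258 to 13067068 counts in genes, and values are given as CPM (gene counts relative to all counts in genes, after TMM scaling of the 10 libraries together). The target gene npas4l had 6 to 33 counts in CD41 cells. It had 344 and 230 counts in gata1a controls, against 451 and 265 where Npas4l OE is the label. These 2 groups overlapped, and edgeR's quasi-likelihood test passed it in neither comparison (adjusted p = 0.99 and 0.83). Npas4l OE below is therefore the label of those libraries. Thrombocyte marker genes, itga2b (CD41) among them, were detected in all 10 libraries, 14 of 14. In clo/+ replicate 3 the 14 markers summed to 4151 CPM, against 6384 to 7715 CPM in the other 5 CD41 libraries. Markers of other cells were present too, with a cardiomyocyte sum of 18321 to 33460 CPM in CD41 cells and 28259 to 57005 CPM among the gata1a libraries. In pooled cells such as these, fewer cells of a type and less RNA per cell cannot be told apart.

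The subunits of the constitutive proteasome were expressed in every library. The 43 constitutive genes, the silent PSMB11 and psmb11b among them, summed to 5441, 5326 and 5397 CPM in the wild-type libraries. In the clo/+ libraries they summed to 5147, 5456 and 3660 CPM. Wild-type libraries were thus close to each other, while clo/+ replicate 3 lay below all 5 other CD41 libraries. In the gata1a libraries the sums were lower, 3286 and 2467 CPM in the controls and 3079 and 3109 CPM under Npas4l OE. Here control replicate 2 was the low library and the Npas4l OE pair lay between the controls. PSMB11 and psmb11b had 0 counts in all 10 libraries, where a count of 0 allows up to 3 counts per library, or 0.241 to 0.445 CPM. PSMC3IP had 0 to 13 counts. The remaining 46 genes passed the filter on low counts in both comparisons.

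**Figure D1:**
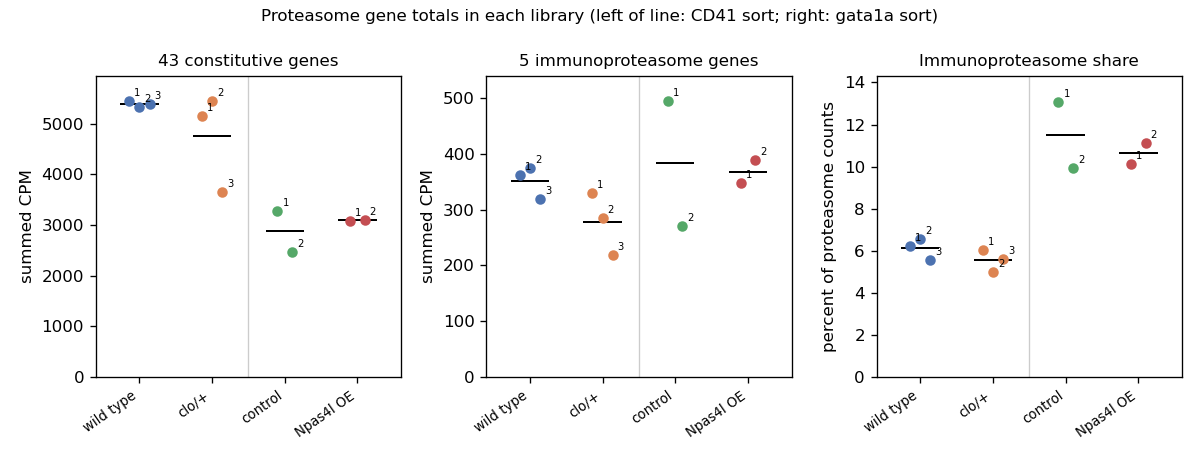
Summed CPM of the 43 constitutive genes (left) and of the 5 immunoproteasome genes (middle), and the immunoproteasome share of all proteasome counts in percent (right), for each of 10 libraries. Points are libraries with their replicate number and bars are group means; the constitutive sum of clo/+ replicate 3 (3660 CPM) lies below the other CD41 libraries, and the shares of the gata1a libraries (9.91% to 13.1%) lie above those of the CD41 libraries (4.97% to 6.58%).

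The low libraries were low across most of the complex. For 39 of the 46 genes, 84.8%, clo/+ replicate 3 was the lowest of the 6 CD41 libraries, and the same held for 25.2% of all 13749 genes tested there. For 38 of the 46, 82.6%, control replicate 2 was the lowest of the 4 gata1a libraries, against 31.0% of all 14006 genes tested. Medians over the subunit genes in both comparisons below are therefore given with and without these libraries, except for the constitutive beta ring. Medians of other gene lists and of all genes are given with every library kept. Within the alpha ring, PSMA3 ranged from 143 CPM in control replicate 2 to 380 CPM in wild-type replicate 1, and psma6l, the lowest alpha gene, from 20.7 to 49.1 CPM. Among the beta subunits PSMB4 ranged from 163 to 312 CPM, and among the ATPases PSMC6 from 97.7 to 294 CPM. Among the non-ATPase subunits PSMD6 ranged from 90.2 to 193 CPM and the ubiquitin receptor gene PSMD4 from 4.08 to 13.8 CPM. The related gene psmd4b ranged from 20.6 to 43.4 CPM. These levels are not divided by transcript length, so they order libraries for one gene and not genes for one library.

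Between the sorts, most constitutive genes had less signal in the gata1a libraries. Of the 41 constitutive genes with counts, 40 had a lower median CPM over the 4 gata1a libraries than over the 6 CD41 libraries, with a median ratio of 0.561, while the median ratio over all 17234 genes above 1 CPM in a library was 1.01. For 23 of the 41 the ranges did not overlap, all lower in the gata1a libraries, and 17.5% of those 17234 genes had ranges apart in either direction. The alpha ring (10 of 10 lower, median ratio 0.518), the ATPases (7 of 7, 0.593), the constitutive beta ring (7 of 7, 0.535) and the non-ATPase subunits (16 of 17, 0.580) differed little in this. PSMD10, known in mammals as the oncoprotein gankyrin and a chaperone of regulatory particle assembly, had the lowest ratio, 0.322. Marker sums also differed between the same libraries. The erythroid markers are 12 genes, 11 of them with counts and 1 SLC4A1 copy at 0 in every library. They summed to 9072 to 13840 CPM in CD41 cells and 1470 to 2787 CPM in gata1a cells. Most of the erythroid sum in CD41 cells was hbaa1. The gene gata1a, on the same list, was higher in most gata1a libraries than in any CD41 library. Thrombocyte markers went the other way, with sums of 4151 to 7715 CPM in CD41 cells and 9626 to 13225 CPM in gata1a cells. Not every gene of that list did so, since gp9 and THBS1 ENSDARG00000103775 were lower in every gata1a library than in any CD41 library. Endothelial sums were lower in every gata1a library than in any CD41 library. Most of the endothelial sum in CD41 cells was CLDN5 ENSDARG00000014059, at 849 to 1958 CPM, against 71.9 to 291 CPM in gata1a cells. On the same list TIE1, pecam1b and plvapa were higher in every gata1a library than in any CD41 library. The lower sum is thus not a trait of the list as a whole. The part of these markers in the proteasome values was not tested. No test is attached, because several conditions change together between these libraries. The reporter used for the sort, the transgenes and the tamoxifen treatment all differ and cannot be told apart. A day after amputation is given for the CD41 libraries only, and a difference in injury cannot be told apart from these either.

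**Figure D2:**
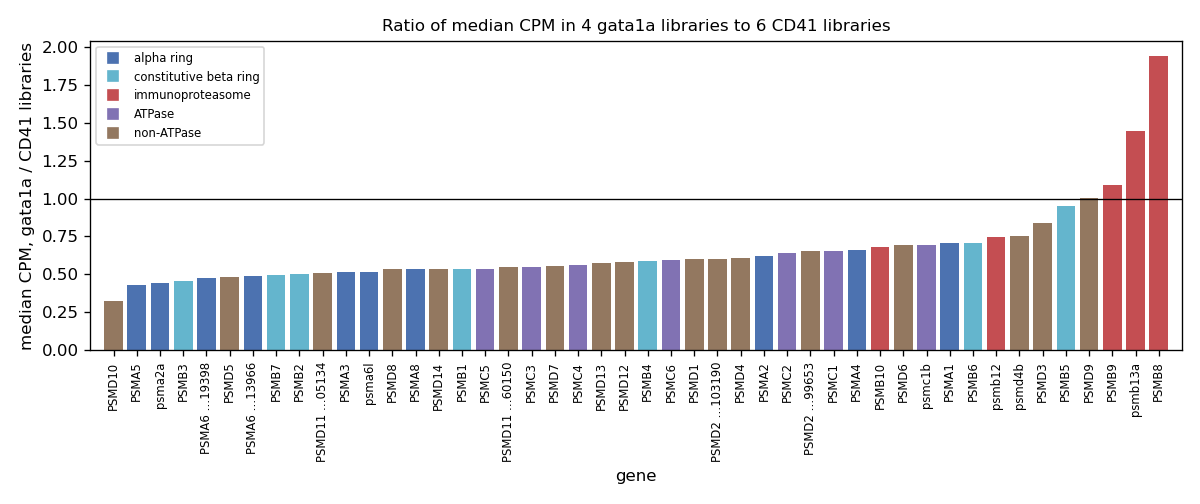
Ratio of each subunit gene's median CPM in the 4 gata1a libraries to its median in the 6 CD41 libraries, on a linear axis from 0 with a line at 1, coloured by role. All but 1 of the constitutive genes stand below 1, while PSMB8 (1.94), psmb13a (1.45) and PSMB9 (1.09), all immunoproteasome genes, stand above it.

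The immunoproteasome genes did not follow this pattern as a group. PSMB8, the inducible counterpart of PSMB5, measured 58.2, 57.6 and 52.0 CPM in the wild-type libraries and 56.6, 54.4 and 39.1 CPM in the clo/+ libraries. In the gata1a libraries it measured 162 and 75.3 CPM in the controls and 97.9 and 118 CPM under Npas4l OE. Every gata1a library thus exceeded every CD41 library, with a ratio of medians of 1.94, and PSMB8 was the single member apart in that direction; a limit on reading its counts as expression is given with its chromosomal neighbours below. For psmb13a the CD41 libraries held 104, 107 and 85.7 CPM in wild type and 91.2, 72.8 and 45.3 CPM in clo/+, and the gata1a libraries 169, 86.2, 122 and 134 CPM. Its ranges overlapped, because control replicate 2 fell within the CD41 range. PSMB9 (10.3 to 16.7 CPM in CD41 libraries, 12.6 to 15.3 CPM in gata1a libraries) had a ratio of 1.09. PSMB10 (61.3 to 87.6 against 38.8 to 67.6 CPM) and psmb12 (61.4 to 110 against 55.8 to 80.6 CPM) had ratios of 0.683 and 0.744, below 1 like the constitutive genes.

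Set against its constitutive counterpart within a library, PSMB8 had 0.469 to 0.648 counts per count of PSMB5 in CD41 cells and 1.17 to 1.76 in gata1a cells. For psmb13a per count of PSMB7 the ranges were 0.293 to 0.512 and 1.16 to 1.58. These ratios use no scaling between libraries, and neither pair of ranges overlapped. The ratio of PSMB10 to PSMB7 was 0.328 to 0.421 and 0.486 to 0.629, again apart, although PSMB10 itself was lower and PSMB7 more so. Per count of PSMB6, PSMB9 stood at 0.0732 to 0.117 and 0.122 to 0.176, where the ranges were apart by a small margin. For psmb12 per count of PSMB6 the ranges were 0.500 to 0.798 and 0.626 to 0.760, and they overlapped. Transcript lengths were not used, so a ratio above 1 does not say that one transcript outnumbered the other.

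Together the 5 genes took 6.24%, 6.58% and 5.57% of proteasome counts in the wild-type libraries (6.13% ± 0.51, SD, n = 3) and 6.03%, 4.97% and 5.62% in the clo/+ libraries (5.54% ± 0.53, SD, n = 3). In the gata1a libraries the share was 13.1% and 9.91% in the controls (11.5% ± 2.25, SD, n = 2) and 10.1% and 11.1% under Npas4l OE (10.6% ± 0.69, SD, n = 2). Exact binomial 95% intervals were narrow, 9.51% to 10.3% for the lowest gata1a library and 6.35% to 6.80% for the highest CD41 library, and cover counting error only. The shares of the sorts did not overlap, and within each sort the 2 groups did. The summed CPM of the 5 genes did overlap between the sorts, at 218 to 375 CPM in CD41 cells and 271 to 495 CPM in gata1a cells, and the difference in share went with the lower constitutive sums given above. With PSMB8 and psmb13a left out the share was 2.82% to 3.81% in CD41 cells and 3.99% to 4.74% in gata1a cells. In RefSeq's GRCz12tu annotation the genes psmb8a, psmb13a, psmb12, psmb9a and tap2a are neighbours on chromosome 19, where mhc1uba also lies, and psmb10 is on chromosome 4. The class I gene mhc1uba had 0 counts in all 6 CD41 libraries, but 1157 to 4158 among the gata1a ones. As background, the MHC class I region of zebrafish differs between haplotypes in gene content and sequence. Whether reads of all alleles of mhc1uba, tap2a, PSMB8, psmb13a, psmb12 and PSMB9 were counted alike in these fish was not tested. The differences of these genes between the sorts, and between the 2 gata1a controls, cannot be told apart from such an effect on counting.

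**Figure D3:**
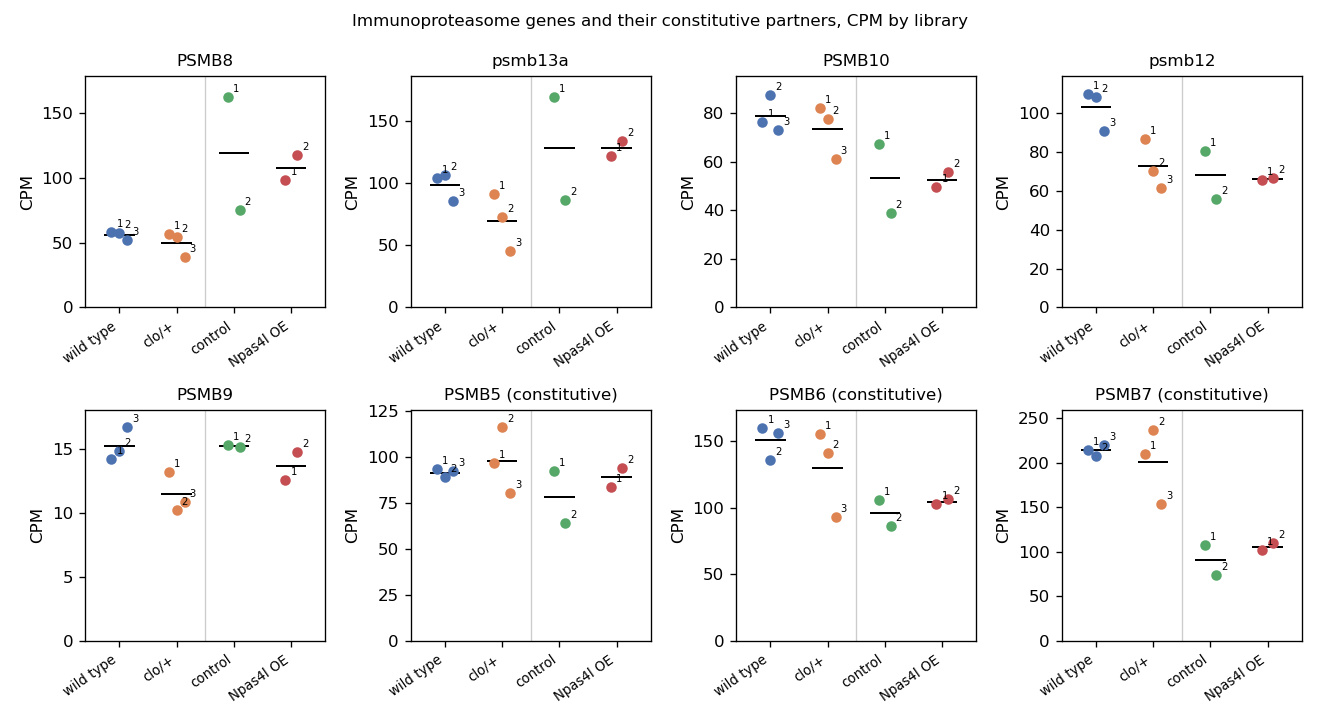
CPM (linear axes from 0) of the 5 immunoproteasome genes and of PSMB5, PSMB6 and PSMB7 in each library, with replicate numbers beside the points and bars at group means. PSMB8 lies at 75.3 to 162 CPM in the gata1a libraries and 39.1 to 58.2 CPM in the CD41 libraries, while PSMB7 lies at 74.5 to 110 and 154 to 237 CPM.

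The first comparison the labels set up is clo/+ against wild type among CD41 cells. No subunit gene passed an adjusted p of 0.05 (edgeR, quasi-likelihood, Benjamini-Hochberg over all genes), where 2 of 13749 genes, 0.0145%, were called, and none did by DESeq2. At an unadjusted p under 0.05, 2 of the 46 members were higher in clo/+ (4.35%, against 7.19% of all genes) and 4 were lower (8.70%, against 4.79%). Of the 46, 38 had a negative log2 fold change, while 6898 of the 13749 genes did. The median was -0.18 over the constitutive genes and -0.42 over the immunoproteasome genes, and 0.00 over all genes.

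Much of this lean came with clo/+ replicate 3. Without it, 27 of the 46 log2 fold changes were negative, the constitutive median was -0.03 and the immunoproteasome median -0.28. In that fit 2 members had an unadjusted p under 0.05, beside 8.15% of all genes. The same library had the low sum of thrombocyte markers given above. Macrophage markers (22 genes, of which 17 or 18 had counts in a CD41 library, with some of the MFAP4 and MPEG1 copies at 0) summed to 505 to 636 CPM in wild type and 721 to 774 CPM in clo/+. The part of either marker list in the proteasome values was not tested.

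By role, the alpha ring leaned together, with 10 of 10 log2 fold changes negative and a median of -0.30, or -0.16 without clo/+ replicate 3. PSMA2, an alpha ring subunit, measured 123, 116 and 117 CPM in wild type and 100, 92.8 and 68.0 CPM in clo/+. All clo/+ libraries were below all wild-type libraries, and the estimate was -0.46 ± 0.21 (SE; adjusted p = 0.39 by edgeR). PSMA2, PSMC6, PSMD3 and psmb12 were named for an unadjusted p under 0.05 and groups apart, so their lack of overlap was set by that choice. The related gene psma2a measured 69.1, 69.9 and 63.2 CPM in wild type and 72.2, 55.8 and 42.0 CPM in clo/+. Its groups overlapped, at -0.26 ± 0.22 (SE). The constitutive beta ring had 6 of 7 negative and a median of -0.23. PSMB5, which carries the chymotrypsin-like activity, was the positive one at 0.08, with PSMB6 (caspase-like) at -0.23 and PSMB7 (trypsin-like) at -0.11. Among the ATPases, 6 of 7 were negative with a median of -0.03, which was 0.10 without clo/+ replicate 3. PSMC6, one of the 6 kinds of ATPase in the ring, measured 294, 259 and 290 CPM in wild type and 221, 243 and 138 CPM in clo/+. The groups did not overlap, and the log2 fold change was -0.50 ± 0.23 (SE; adjusted p = 0.39 by edgeR). Over the alternative fits listed under processing it ran from -0.66 to -0.29.

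The non-ATPase subunits split, 11 of 17 negative and a median of -0.10, which was 0.04 without clo/+ replicate 3. PSMD3, a scaffold subunit of the regulatory particle's lid, measured 57.6, 57.5 and 82.0 CPM in wild type and 93.0, 103 and 85.6 CPM in clo/+. Here clo/+ was the higher group without overlap, at a log2 fold change of 0.50 ± 0.21 (SE; adjusted p = 0.36 by edgeR). PSMD1, the large scaffold subunit of the base, had 49.0, 39.0 and 61.4 CPM in wild type and 54.1, 78.6 and 84.9 CPM in clo/+. Its groups overlapped, at 0.53 ± 0.23 (SE; adjusted p = 0.38 by edgeR). For both genes clo/+ replicate 3, the low library elsewhere, was not the lowest of the CD41 libraries.

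All 5 immunoproteasome genes had a negative log2 fold change. The gene psmb12 measured 110, 108 and 90.8 CPM in wild type and 86.7, 70.3 and 61.4 CPM in clo/+, without overlap, at -0.51 ± 0.21 (SE; adjusted p = 0.34 by edgeR). PSMB9 also did not overlap, with 14.2, 14.8 and 16.7 CPM in wild type and 13.3, 10.3 and 10.9 CPM in clo/+, at -0.42 ± 0.27 (SE). For psmb13a, given by library above, wild-type replicate 3 lay below clo/+ replicate 1, and the estimate was -0.51 ± 0.24 (SE; adjusted p = 0.40 by edgeR). PSMB8 stood at -0.17 and PSMB10 at -0.11. In all, 11 of the 46 members had groups apart, 10 lower and 1 higher in clo/+, which is 23.9% beside 18.2% of all genes tested.

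The second comparison is Npas4l OE against control among gata1a cells, with 2 libraries a group and controls that differ in genotype. Its p-values and standard errors hold that difference too. No subunit gene passed an adjusted p of 0.05 in edgeR's quasi-likelihood test, where 5 of 14006 genes, 0.0357%, were called, and none did by DESeq2. At an unadjusted p under 0.05, 4 of the 46 members were higher under Npas4l OE (8.70%, against 6.11% of all genes) and 0 were lower, against 9.36% of all genes. The 4 are all non-ATPase genes. Positive log2 fold changes numbered 29 and negative ones 17, with a median of 0.07 over the constitutive genes, -0.06 over the immunoproteasome genes and -0.01 over all genes.

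The 2 PSMD2 genes and PSMD1, which encode the large scaffold subunits that receive ubiquitinated substrates and their carriers, had the smallest p-values with PSMD5, a chaperone of base assembly. PSMD2 with the identifier ENSDARG00000103190 measured 14.9 and 7.50 CPM in the controls and 24.2 and 26.9 CPM under Npas4l OE. The Npas4l OE libraries were the higher pair, at a log2 fold change of 1.18 ± 0.36 (SE; adjusted p = 0.18 by edgeR). Its copy ENSDARG00000099653 measured 27.3 and 15.3 CPM against 34.5 and 36.0 CPM, also without overlap, at 0.72 ± 0.31 (SE; adjusted p = 0.31 by edgeR). The sequences of these 2 genes were not compared here; where copies are alike, counting can lose or exchange reads between them. PSMD1 measured 26.7 and 24.2 CPM in the controls and 42.7 and 46.7 CPM under Npas4l OE, at 0.80 ± 0.25 (SE; adjusted p = 0.19 by edgeR). Both controls lay below both Npas4l OE libraries. The genes of this paragraph were named for an unadjusted p under 0.05 and groups apart, so their lack of overlap was set by that choice. PSMD5 measured 6.0 and 3.29 CPM in the controls and 9.13 and 10.8 CPM under Npas4l OE, at 1.09 ± 0.44 (SE; adjusted p = 0.28 by edgeR).

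The sign of the medians changed with the control kept. Without control replicate 1 the median log2 fold change was 0.27 over the constitutive and 0.42 over the immunoproteasome genes. Without control replicate 2 these medians were -0.06 and -0.36. Each of these fits leaves 1 control library and assumes that it varies like the Npas4l OE libraries, so effect sizes alone are given. With both controls kept, all 7 ATPase genes had positive values (median 0.19), the largest being PSMC3 at 0.43. The non-ATPase subunits had 14 of 17 positive (median 0.13), and the alpha ring 5 of 10 (median 0.00). Without control replicate 1 the medians of these roles, in the same order, were 0.46, 0.50 and 0.15. Without control replicate 2 they were -0.04, 0.02 and -0.16. The constitutive beta ring had 3 of 7 positive (median -0.03), namely PSMB5 at 0.17, PSMB6 at 0.11 and PSMB7 at 0.21.

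All 5 immunoproteasome genes had small negative values, from -0.17 (PSMB9) to -0.01 (psmb13a), each with a standard error above 0.25. For PSMB8, psmb13a, psmb12 and PSMB10 both Npas4l OE libraries lay between the 2 controls, and PSMB8 stood at -0.15 ± 0.32 (SE). Of the 46 members, 12 had groups apart, 8 higher and 4 lower under Npas4l OE, or 26.1%, where 47.8% of all genes tested did. Scaling by library size alone moved the median of all genes to 0.18 and turned all 5 immunoproteasome values positive (0.02 to 0.18), beside that shift of all genes. Macrophage markers summed to 1497 and 2952 CPM in the controls and 300 and 1193 CPM under Npas4l OE, with 16 to 18 of the 22 genes detected. Cardiomyocyte markers summed to 47191 and 57005 CPM in the controls and 29380 and 28259 CPM under Npas4l OE. Erythroid markers summed to 2787 and 1470 CPM in the controls and 1560 and 1512 CPM under Npas4l OE, with 10 of 11 tested log2 fold changes negative and a median of -1.62. Endothelial markers (11 or 12 of 12 genes detected) summed to 987 and 964 CPM in the controls and 633 and 726 CPM under Npas4l OE, with 10 of 11 negative. Thrombocyte markers went the other way, at 11501 and 9626 CPM in the controls and 13225 and 12116 CPM under Npas4l OE. Of those 14 genes, 10 had a positive log2 fold change and 4 a negative one. The part of these marker lists in the proteasome values was not tested.

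**Figure D4:**
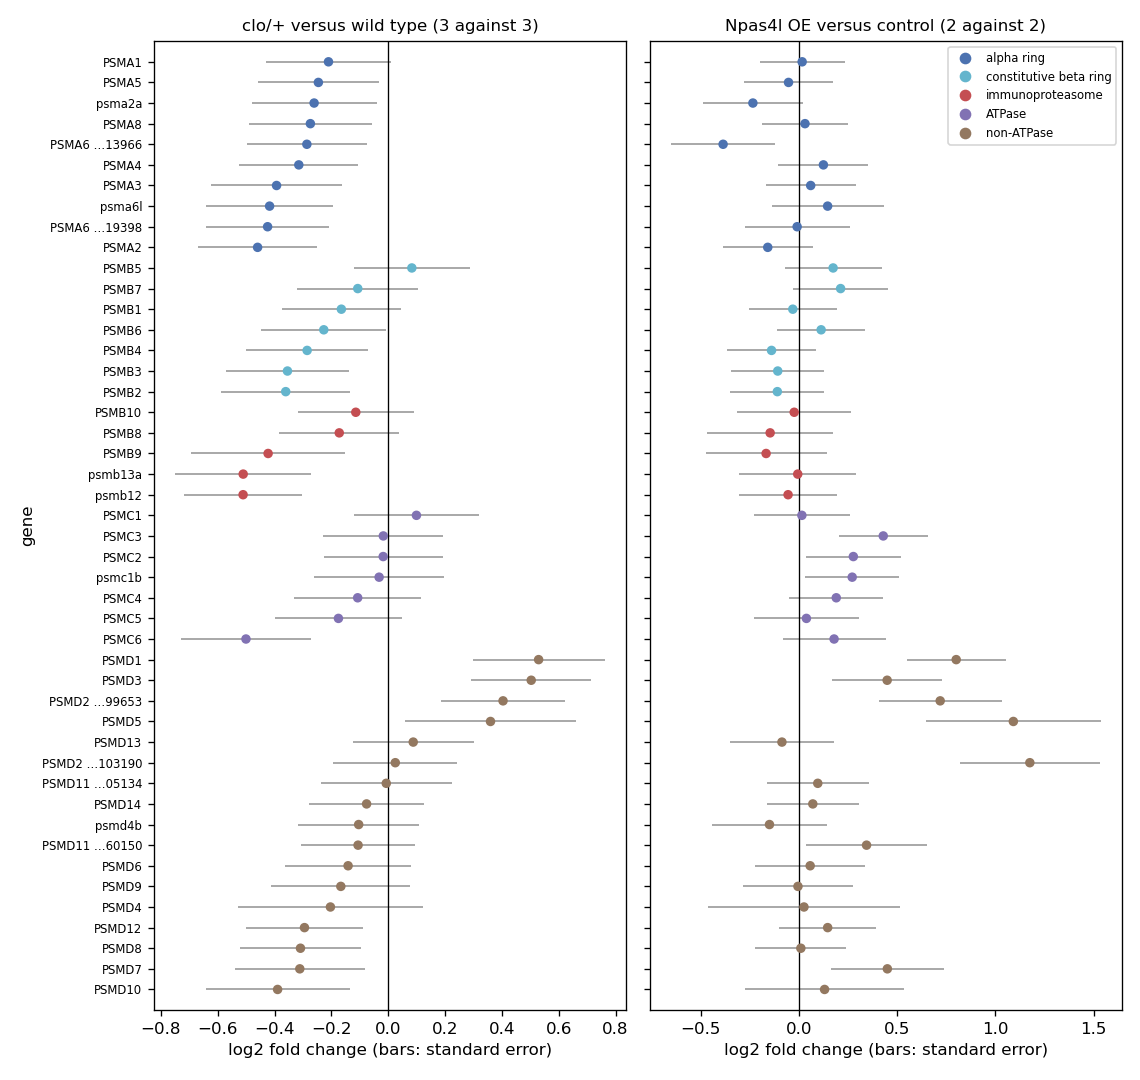
Log2 fold change of the 46 subunit genes tested, clo/+ against wild type (left, 3 libraries a group) and Npas4l OE against control (right, 2 libraries a group), coloured by role, with bars of 1 standard error. In the left panel all 10 alpha ring genes lie below 0, and in the right panel the largest values belong to PSMD2 ENSDARG00000103190 (1.18), PSMD5 (1.09) and PSMD1 (0.80).

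Genes that work with the proteasome were read from lists chosen for the pathway, and none passed an adjusted p of 0.05 in either comparison, so the counts here are of unadjusted p under 0.05. The shares of all genes at that p, against which each count is to be read, were 7.19% higher and 4.79% lower in clo/+, and 6.11% higher and 9.36% lower under Npas4l OE. Among 6 activators and inhibitors, 1 was lower in clo/+ and 0 reached that p under Npas4l OE. That gene was PSME3, the nuclear activator, with 70.7, 83.5 and 78.3 CPM in wild type and 65.2, 51.8 and 49.0 CPM in clo/+ (log2 fold change -0.50 ± 0.20, SE). PSME2, part of the interferon-inducible activator, stood at -0.47 ± 0.24 (SE). Of 10 assembly and associated factors, 2 were lower in clo/+, the core maturation factor POMP at -0.48 and the chaperone PSMG3 at -0.47, and 0 reached that p under Npas4l OE, where PSMG2, another chaperone of core assembly, stood at -0.44.

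Of 9 tested regulators of proteasome genes, 1 was higher in clo/+. It was NFE2L2, the transcription factor of the oxidative stress response, with 29.8, 36.6 and 35.9 CPM in wild type and 56.3, 52.9 and 84.7 CPM in clo/+. Its groups did not overlap, at 0.91 ± 0.23 (SE; adjusted p = 0.15 by edgeR). NGLY1, the deglycosylase that acts on NFE2L1, stood at 0.52, and under Npas4l OE DDI2, the protease that cleaves NFE2L1, stood at 0.58 with 0 of 7 regulators past that p. Of 12 ubiquitin and shuttle genes, uba1, which encodes the main ubiquitin-activating enzyme, was higher in clo/+ at 0.49. Under Npas4l OE 1 of the 12 was higher, ubc at 0.64, and 2 were lower, among them rps27a, a ubiquitin-ribosomal fusion gene, at -0.72. Of the class I antigen presentation genes, 1 of 22 was higher in clo/+, ERAP1 with the identifier ENSDARG00000021859 at 0.85, and 1 of 23 in each direction under Npas4l OE, CANX at 0.53 and mhc1zba at -0.51.

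Of the interferon response genes, which as background include inducers of the immunoproteasome, 4 of 21 were lower in clo/+ and 8 of 24 were lower under Npas4l OE, with 0 higher in either. These are 19.0% and 33.3% of the tested genes, beside 4.79% and 9.36% of all genes. Under Npas4l OE the macrophage markers were also negative in 15 of 16 tested genes, with 11 at that p, and their part in the interferon values was not tested. The medians were -0.21 and -0.45. IRF7, an interferon regulatory factor, stood at -0.58 ± 0.23 (SE) in clo/+ and at -1.15 ± 0.33 (SE) under Npas4l OE. The ubiquitin-like gene isg15 stood at -0.69 ± 0.24 (SE) in clo/+, and mxc, an antiviral GTPase gene of 0 to 4.65 CPM in the gata1a libraries, at -4.32 ± 1.03 (SE) under Npas4l OE.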

How the data were processed

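The authors deposited 1 file of raw read counts per gene for each of 10 libraries. Per the submitters' processing notes, which give no order or role, FastQC 0.11.4, Trim Galore 0.6.0, HISAT2 2.1.0, DESeq2 1.22.1 and the build GRCz11 were used. The counter and the use of strand are not given in the sources used here. The deposited summary lines were left out, and genes held 41.0% to 49.3% of the reads. Per the labels' protocols, cDNA was primed with oligo-dT, amplified in full and tagmented, and no molecular identifiers are mentioned, so precision from counts covers counting error only.

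Groups came from the sample titles. The CD41 and the gata1a libraries had a model each in edgeR 4.0.16 (R 4.3.3), with filterByExpr (minimum count 10, minimum total 15), TMM, quasi-likelihood test, Benjamini-Hochberg adjustment over all genes tested, threshold 0.05, two-sided. A standard error is the size of the log2 fold change over the root of its F statistic. Symbols come from a name table, which names 29201 identifiers, and 39 members matched a RefSeq symbol in GRCz12tu. Symbols shared by several identifiers are given with the identifier. No sequences or coordinates are printed. Replicate pairs differed well beyond sampling noise (chi-square per degree of freedom 11.0 to 43.6).

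Named were the immunoproteasome genes, their constitutive counterparts, the up to 4 members in each direction with the smallest p under 0.05 and groups apart, the highest and lowest member of each family, and the 2 list genes with the smallest p. PSMD1 and psma2a in clo/+, PSMC3, PSMD10 and the single marker genes set beside the sums of the sorts were named after their values were seen. Members and lists were chosen with earlier results of these data known. The fits were tested on simulated data. Alternatives were RLE or no scaling factors, no filter, DESeq2 1.42.0, a joint fit of both sorts, a block for the replicate number, and each library left out.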

Additional observations from a re-analysis of the deposited data

How the results depend on the processing

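The alternatives moved the number of genes called, and under Npas4l OE they also turned the sign of the medians of the members. The causes were not tested. Over all genes, clo/+ against wild type gave 211 calls without the filter, 132 with DESeq2, 1 in a fit of all 10 libraries, 120 with the replicate block and 0 to 17 with a library left out. Npas4l OE against control gave 2 with library size alone, 648 without the filter, 390 with DESeq2, 110 in a fit of all libraries, 187 with the replicate block and 52 to 1111 with a library left out. No member was among the calls in clo/+ under any alternative. Under Npas4l OE, PSMD2 ENSDARG00000103190 passed without the filter (adjusted p = 0.0296 by edgeR), where 648 of 22133 genes did. No member passed in the other alternatives that kept both libraries of each group. Same-numbered deviations correlated at 0.0144, 0.0945 and 0.103 in the CD41 sort, and differently numbered ones at -0.101 to 0.0177. In the gata1a sort the same-numbered value was 0.0798. With 2 libraries a group all pairs there share 1 size of correlation, so it cannot show pairing. Whether replicate numbers mark a shared batch is not settled by these values. With the block, the constitutive medians were -0.20 and 0.11.

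In clo/+, 12.16% of all genes had an unadjusted p under 0.05 with library size alone. The share was 11.99% without clo/+ replicate 1, and 8.77% and 8.29% without wild-type replicates 1 and 2. Members with that p numbered 3, 7, 0 and 0 in that order, and 0 to 7 with any library left out. Under Npas4l OE they numbered 2 with DESeq2 and 1 to 14 with a library left out. With DESeq2 8.43% of all genes had that p under Npas4l OE. Each fit with a library left out there keeps 1 library in a group, so its count is not read as a result. With library size alone under Npas4l OE, 2 members had a negative value and the constitutive median was 0.26, beside a median of all genes of 0.18. With a library left out there, 7 to 33 members were negative, the constitutive median ran from -0.059 to 0.27 and the immunoproteasome median from -0.36 to 0.42. The sign of these Npas4l OE values thus depends on which control is kept. Leaving out PSMB8 and psmb13a gave mean immunoproteasome shares of 3.53% in wild type, 3.25% in clo/+, 4.50% in controls and 4.1% under Npas4l OE.

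Among named members, library size alone turned 7 log2 fold changes positive under Npas4l OE: PSMB9 0.022, PSMB8 0.041, psmb13a 0.18, psmb12 0.13, PSMB10 0.16, PSMA2 0.029 and PSMB4 0.048. The value of psmb13a was also 0.00091 without the filter, 0.0019 with DESeq2 and 0.065 with the replicate block, where PSMB10 was 0.021. With a library left out in clo/+, signs turned for PSMD2 ENSDARG00000103190 (-0.15 to 0.13), PSMB5 (-0.051 to 0.20), PSMB7 (-0.24 to 0.047), PSMD6 (-0.26 to 0.051) and PSMD4 (-0.42 to 0.039). With a library left out under Npas4l OE, they turned for PSMB8 (-0.59 to 0.50), psmb13a (-0.40 to 0.55), psmb12 (-0.28 to 0.22), PSMB10 (-0.36 to 0.42), PSMB4 (-0.32 to 0.076), PSMB5 (-0.052 to 0.45), PSMB6 (-0.019 to 0.26), PSMB7 (-0.016 to 0.49), PSMC6 (-0.14 to 0.59), PSMA3 (-0.13 to 0.29), psma6l (-0.061 to 0.35), PSMD6 (-0.28 to 0.50) and PSMD4 (-0.43 to 0.71). Where the sign in clo/+ held in every alternative, the size still moved. PSMA2 ran from -0.57 to -0.31, PSMC6 from -0.66 to -0.29 and psmb12 from -0.65 to -0.41. The range was -0.75 to -0.28 for psmb13a and 0.42 to 0.70 for PSMD3. The share on a protein length scale was not run. Depth limits PSMD4, PSMD5 and PSMB9 most among the 46 members tested, since they had the lowest mean CPM.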

Other observations

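The class I gene mhc1uba measured 509 and 152 CPM in the controls and 359 and 400 CPM under Npas4l OE, with 0 counts in every CD41 library. The class I light chain gene b2m was present in both sorts, at 917 to 1530 CPM in CD41 cells and 1661 to 2261 CPM in gata1a cells. The peptide transporter genes next in the pathway were detected in both sorts, with TAP1 at 11.1 to 18.1 and 7.24 to 11.5 CPM and tap2a at 2.73 to 6.52 and 5.66 to 10.0 CPM. The limit on counting alleles given above holds here for mhc1uba and tap2a. The activator genes PSME1 and PSME2, whose products bind the core in place of the regulatory particle, had less signal in most gata1a libraries, 105 to 153 CPM against 146 to 283 CPM for PSME1 and 93.9 to 193 CPM against 143 to 339 CPM for PSME2. These values were chosen after they were seen and were not tested.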
